A study of Mus musculus with 12 samples.

Results

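TRAJ11, TRAJ12, TRAJ13, TRAJ15, TRAJ16, TRAJ17 and TRAJ18 are 7 joining (J) segments of the mouse T cell receptor alpha locus. Their chains were taken from 6 T cell receptor (TCR) libraries of tumour leukocytes by the J segment named for each assembled alpha chain. They made up 3053 of 24169 alpha chains (12.6%) on 2968 cell barcodes. After 223 barcodes with surplus chains and 58 without a beta chain were left out, 2687 of 19115 paired T cells (14.1%) carried at least 1 of the 7 segments, and 72 of these cells carried 2. These cells held 1731 of the 12076 distinct alpha-beta receptors.

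The host animals were C57BL/6J mice, 6 to 8 weeks old. All carried subcutaneous tumours from 300000 engrafted cells of a derivative of MC38, a mouse colon cancer line, with p53 knocked out and a p53 substitution whose notation differs between labels. Each tumour was injected once on day 10 with 40 µg of either LNP-Ctrl or the preparation named LNP-P20-mAb, when tumours measured about 50 to 100 mm³, and the labels do not say what the 2 preparations carry. About 10000 viable CD45+ leukocytes per sample were sorted and made into 5′ single-cell libraries with enrichment of TCR transcripts, and 3 TCR libraries were deposited for each treatment.

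The LNP-Ctrl libraries held 3333, 3923 and 3737 paired cells, and the LNP-P20-mAb libraries held 3263, 2016 and 2843. A clonotype was defined as the cells of a library with the same beta chain and a shared alpha chain, and the libraries held 399 to 3416 of them. LNP-P20-mAb 1 and LNP-P20-mAb 2 did not behave as unrelated samples. They shared 18 receptors with a member segment, which was 23.7% of the 76 in the first and 28.6% of the 63 in the second, whereas the other 14 pairs of libraries shared 0. The 15 pairs of libraries shared 11 to 29 cell barcodes each, and LNP-P20-mAb 1 and 2 shared 15. Results that rest on these libraries are given with both pooled where pooling changed the call.

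An alpha chain is built by joining a V (TRAV) segment to a J (TRAJ) segment, with bases trimmed and added at the joint. The joint lies inside CDR3, the loop that contacts the peptide held by an MHC molecule, and the J segment supplies the end of that loop and the framework 4 region after it. The alpha locus can rearrange again and again in a developing thymocyte: early joins use V segments close to the J cluster and J segments at its near (5′) end, and later joins replace them with V segments farther away and J segments farther downstream. The 7 segments described here lie towards the far (3′) end of the J cluster. TRAJ18 is the J segment of the invariant natural killer T (iNKT) cell receptor, in which TRAV11 is joined to TRAJ18 and paired with few beta chains, and which sees lipids on CD1d in place of peptides on MHC.

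The bases of the 7 segments are shown because the loops of each member end in them. Each line was read from the deposited chains, base by base back from the end of CDR3, as the base carried by most chains that still matched. Many receptors lack the first bases of a line, which were trimmed. Capitals mark the part that can lie in CDR3 and lower case marks framework 4.
TRAJ11: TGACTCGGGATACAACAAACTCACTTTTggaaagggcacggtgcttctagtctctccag
TRAJ12: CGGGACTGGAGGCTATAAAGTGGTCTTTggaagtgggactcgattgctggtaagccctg
TRAJ13: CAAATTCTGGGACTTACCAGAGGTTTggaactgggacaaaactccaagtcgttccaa
TRAJ15: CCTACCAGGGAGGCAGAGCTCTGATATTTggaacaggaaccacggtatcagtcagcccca
TRAJ16: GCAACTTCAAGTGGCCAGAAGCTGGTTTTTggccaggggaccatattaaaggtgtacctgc
TRAJ17: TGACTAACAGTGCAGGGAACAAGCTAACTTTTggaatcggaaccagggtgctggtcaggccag
TRAJ18: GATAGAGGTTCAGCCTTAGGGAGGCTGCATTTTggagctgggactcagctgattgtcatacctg

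All 7 had 31 framework 4 bases. Counted once per cell barcode, the share of chains with the framework 4 sequence shown was lowest for TRAJ12, at 99.4%. The part shown ahead of it ranged from 26 bases in TRAJ13 to 33 in TRAJ18, which encode the ends NSGTYQRF and DRGSALGRLHF. The full ends of the others read DSGYNKLTF for TRAJ11, GTGGYKVVF for TRAJ12, YQGGRALIF for TRAJ15, ATSSGQKLVF for TRAJ16 and TNSAGNKLTF for TRAJ17. TRAJ11 and TRAJ17 thus close the loop with the same 5 residues, NKLTF. Trimming was modest in most chains: of the bases shown ahead of framework 4, the median receptor kept 28 of 28 of TRAJ11, 26 of 28 of TRAJ12, 25 of 26 of TRAJ13, 26 of 29 of TRAJ15, 29 of 30 of TRAJ16, 28 of 32 of TRAJ17 and 31 of 33 of TRAJ18. RefSeq's TRAJ18 (assembly GRCm38.p6) holds 35 bases ahead of framework 4, more than the 33 shown. The bases before the J part, from the V segment and from added bases, had a median of 13 in TRAJ18 and 14 in each of the other 6.

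TRAJ15 and TRAJ12 were the most used of the 7, and TRAJ11 and TRAJ16 the least. Counted by clonotypes, so that a large clone weighs no more than a single cell, the mean share over the 6 libraries was 3.52% for TRAJ15, which ranked 10 of 43 TRAJ segments. TRAJ12 followed at 3.13% (rank 15), TRAJ17 at 2.55% (rank 20), TRAJ18 at 2.14% (rank 25), TRAJ13 at 2.09% (rank 26), TRAJ11 at 1.17% (rank 37) and TRAJ16 at 0.896% (rank 41). The median TRAJ segment had 2.39% and the most used, TRAJ22, 7.28%. Between neighbours in this order, only TRAJ13 lay above the next, TRAJ11, in 6 of 6 libraries, by 0.911 percentage points (exact two-sided sign-flip permutation p = 0.03125, the smallest that 6 libraries allow; 0.1875 adjusted over the 6 neighbour pairs). TRAJ12 lay above TRAJ17 in 5 of 6 libraries, by 0.576 ± 0.459 points (SD of the difference; exact sign-flip permutation p = 0.0625, 0.1875 adjusted). The other 4 pairs kept their order in 3 or 4 of 6 libraries, and no neighbour pair passed after adjustment.

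TRAJ12 was the only one of the 7 segments whose clonotype share did not overlap between treatments. It took 3.28, 3.53 and 3.81% of clonotypes in the LNP-Ctrl libraries and 2.51, 2.76 and 2.88% in the LNP-P20-mAb libraries, with means of 3.54 ± 0.263% and 2.72 ± 0.190% (SD, n = 3 each). With 3 against 3 libraries the exact two-sided permutation test cannot go below 0.1, which is the value for TRAJ12 (0.430 adjusted over the 43 TRAJ segments). Among those 43 segments, 9.30% lay lower in all LNP-P20-mAb libraries and 14.0% higher.

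TRAJ18, without regard to its V partner, had 2.72, 2.98 and 2.25% of clonotypes with LNP-Ctrl and 1.08, 1.504 and 2.29% with LNP-P20-mAb, so that LNP-P20-mAb 3 lay inside the LNP-Ctrl range. Its chains without TRAV11, a subset described below, had 2.06, 2.30 and 1.90% against 0.717, 1.003 and 1.85%, which did not overlap (means of 2.09 ± 0.199 and 1.19 ± 0.588%, SD, n = 3 each; exact permutation p = 0.1, the smallest possible). TRAJ15 was nearly level, with 3.28, 3.37 and 3.92% against 3.58, 3.51 and 3.47%. TRAJ13 was spread most among LNP-P20-mAb libraries, at 1.79, 3.51 and 1.63% against 1.45, 2.27 and 1.87% with LNP-Ctrl. TRAJ11 (1.00 to 1.43% over all 6), TRAJ16 (0.358 to 1.29%) and TRAJ17 (2.22 to 2.99%) overlapped between treatments too.

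In edgeR's quasi-likelihood test on numbers of clonotypes over 154 V and J segments, 2.60% were called at an adjusted p below 0.05, and 0 of the 7 members were. Their log2 differences, LNP-P20-mAb against LNP-Ctrl, ran from -0.55 ± 0.27 (SE) for TRAJ18 (edgeR adjusted p = 0.277) and -0.52 ± 0.39 for TRAJ16 through -0.37 ± 0.19 for TRAJ12 (edgeR adjusted p = 0.295) to 0.12 ± 0.31 for TRAJ13. The members' median was -0.14, beside -0.05 over all segments. At an unadjusted p below 0.05 edgeR had 29 of the 154 segments and 0 members, and DESeq2 also called 0 members. The labels do not say that libraries came from separate animals, so these p-values measure the spread between libraries, which may in part be technical.

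**Figure D1:**
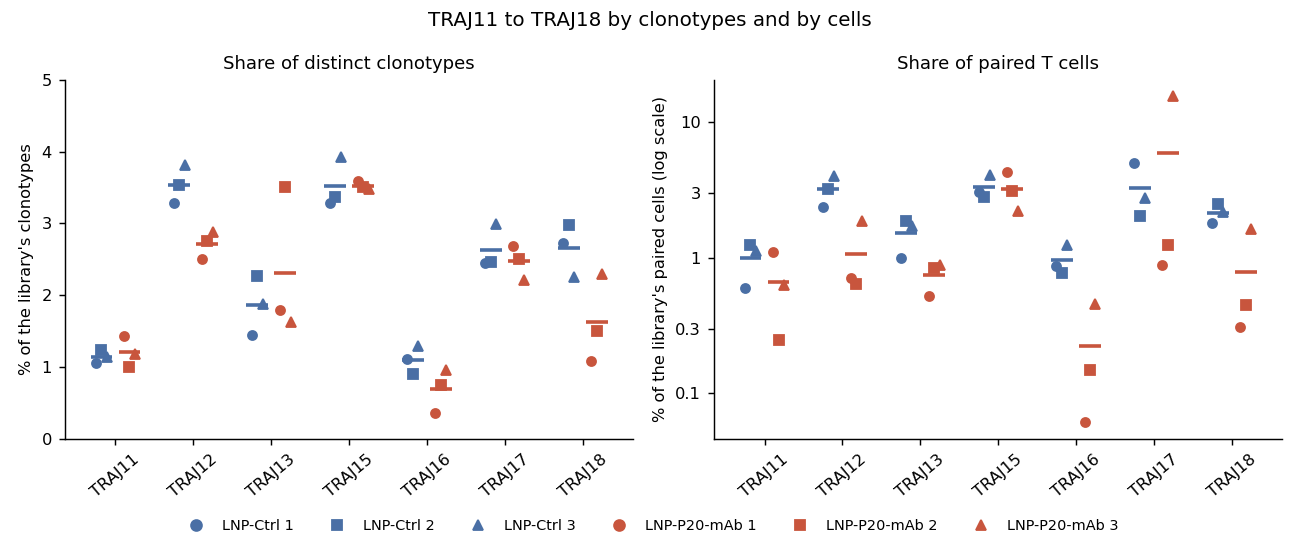
Share of a library's distinct clonotypes (left, linear axis) and of its paired cells (right, log axis) with each J segment; each point is 1 library and each short line the mean of 3. TRAJ12 lies lower in all 3 LNP-P20-mAb libraries on both scales, and TRAJ17 reaches 15.5% of cells in LNP-P20-mAb 3 with an ordinary 2.22% of its clonotypes.

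By cells the same segments looked different, because a few clones weighed heavily. TRAJ17 was carried by 4.98, 2.01 and 2.76% of paired cells with LNP-Ctrl and by 0.889, 1.24 and 15.5% with LNP-P20-mAb. Without the largest TRAJ17 clone of each of these 2 libraries, LNP-P20-mAb 3 was at 1.27% and LNP-Ctrl 1 at 1.62%. TRAJ15 was carried by 3.03, 2.80 and 4.04% of cells with LNP-Ctrl and by 4.26, 3.08 and 2.22% with LNP-P20-mAb, and both sets overlapped.

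4 members had a lower cell share in every LNP-P20-mAb library than in any LNP-Ctrl library: TRAJ12, TRAJ13, TRAJ16 and TRAJ18. That is 4 of 7, beside 32.6% of all 43 TRAJ segments, and 4.65% lay higher. TRAJ12 went from 3.19 ± 0.837 to 1.07 ± 0.687% of cells and TRAJ16 from 0.955 ± 0.244 to 0.222 ± 0.208% (SD, n = 3 each). TRAJ18 was at 1.80, 2.47 and 2.17% against 0.306, 0.446 and 1.62%, and TRAJ13 at 0.990, 1.86 and 1.71% against 0.521, 0.843 and 0.879%. Each of these 4 had an exact permutation p of 0.1, the smallest possible, and 0.269 after adjustment over the 43 segments. A lower share of cells cannot be told apart from a larger share taken by expanded clones with other segments.

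Over the 6 libraries the clonotype share of each member followed some other TRAJ segment most closely, which is given as a description with no test, because all shares of a library come from 1 total. Pearson's r was 0.783 for TRAJ11 with TRAJ57, 0.848 for TRAJ12 with TRAJ16, 0.843 for TRAJ13 with TRAJ24 and 0.853 for TRAJ15 with TRAJ39. It was 0.952 for TRAJ17 with TRAJ39 and 0.816 for TRAJ18 with TRAJ34. TRAJ12 and TRAJ16 were each other's closest segment.

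Most clonotypes with these segments were single cells, and 6 of 1675 reached 20 cells: 3 with TRAJ15, 2 with TRAJ17 and 1 with TRAJ11. Single cells made up between 87.1% of the clonotypes with TRAJ11 and 96.4% of those with TRAJ16. Counted by receptors, 91.9% of the members' and 91.7% of those with other TRAJ belonged to single-cell clonotypes. Clonotypes of 20 or more cells held 6 of 1731 member receptors and 80 of 10345 with other TRAJ. The largest clones are shown with the bases of their alpha CDR3, because they set the cell shares above. Capitals mark the part that matches the J segment.
TRAJ17, 404 cells, LNP-P20-mAb 3: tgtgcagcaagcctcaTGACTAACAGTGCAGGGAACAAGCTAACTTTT
TRAJ17, 112 cells, LNP-Ctrl 1: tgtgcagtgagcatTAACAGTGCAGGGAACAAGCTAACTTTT
TRAJ15, 91 cells, LNP-P20-mAb 1, and 40 cells, LNP-P20-mAb 2: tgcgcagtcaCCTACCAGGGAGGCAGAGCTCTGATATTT
TRAJ11, 28 cells, LNP-P20-mAb 1: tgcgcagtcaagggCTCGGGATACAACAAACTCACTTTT
TRAJ15, 25 cells, LNP-Ctrl 1: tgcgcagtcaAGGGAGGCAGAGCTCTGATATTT

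The 404 cells joined TRAV7D-2 to a full-length TRAJ17 part of 32 bases and paired with TRBV3 (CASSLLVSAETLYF). They were 14.2% of the paired cells of LNP-P20-mAb 3 (exact Clopper-Pearson 95% interval 12.9 to 15.5%, which like the other intervals covers counting error only), and the clonotype held 414 cells in all. This clonotype had 2 alpha chains, of which the TRAJ17 chain was 1. The 112-cell clone of LNP-Ctrl 1 used TRAV7N-6 with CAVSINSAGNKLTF and TRBV13-2 with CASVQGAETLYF, and was 3.36% of that library. The clone seen in both LNP-P20-mAb 1 and 2 joined TRAV3N-3 to all 29 bases of TRAJ15 (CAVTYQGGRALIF) and paired with TRBV13-3 (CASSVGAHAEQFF). Its share was 2.79% of the cells of the first library and 1.98% of the second.

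TRAJ11's largest clone, 28 cells of LNP-P20-mAb 1, used TRAV3N-3 (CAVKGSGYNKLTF) with TRBV10, and made up 77.8% of the library's TRAJ11 cells. A TRAJ15 clone of 25 cells in LNP-Ctrl 1 used TRAV3N-3 as well, with a shorter loop (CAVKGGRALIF) and TRBV13-3 (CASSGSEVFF). So 4 of the 6 clonotypes of 20 or more cells had TRAV3N-3, and 3 of these paired with TRBV13-3, counting the clone of LNP-P20-mAb 1 and 2 in each library. These counts are descriptions of few clones, with no test.

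The remaining members had no clone of 20 cells. TRAJ12's largest held 15 cells in LNP-Ctrl 3 (TRAV6D-6, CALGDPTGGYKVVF) and 10 in LNP-P20-mAb 1 (TRAV10D, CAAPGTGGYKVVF). TRAJ18's held 7 cells in LNP-Ctrl 1 (TRAV7N-5) and 12 in LNP-P20-mAb 3 (TRAV6-5). TRAJ13 and TRAJ16 met in 1 clone of 9 cells in LNP-Ctrl 1, whose cells carried TRAV12-2 with TRAJ16 (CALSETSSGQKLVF) and, in 7 of them, also TRAV9-1 with TRAJ13 (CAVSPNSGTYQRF). With LNP-P20-mAb the largest TRAJ13 clone had 8 cells (TRAV6N-7), and all 18 TRAJ16 cells were single-cell clonotypes. The 10-cell TRAJ12, 8-cell TRAJ13 and 7-cell TRAJ18 clones each had 2 alpha chains as well.

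**Figure D2:**
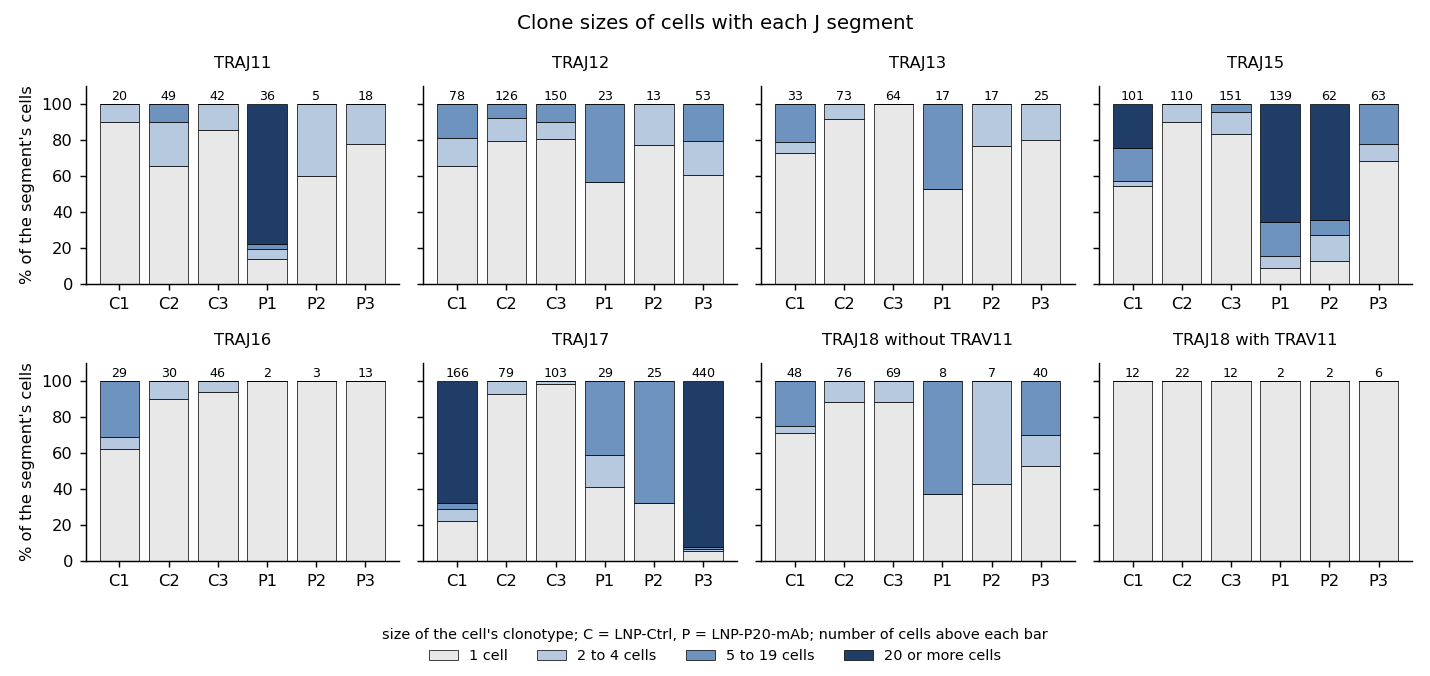
Share of the cells with each J segment that belonged to clonotypes of 1, 2 to 4, 5 to 19 and 20 or more cells, by library; the number of cells stands above each bar. Clones of 20 or more cells appear with TRAJ11, TRAJ15 and TRAJ17, and every one of the 56 TRAJ18 cells with TRAV11 was a clonotype of its own.

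TRAJ13, TRAJ16 and TRAJ18 had a low share of cells in clones in every library, though not past the adjusted threshold. The share of cells in clonotypes of 2 or more cells lay below that among all other TRAJ in 6 of 6 libraries for TRAJ13 (by a mean of 32.3 percentage points), TRAJ16 (44.1 points) and TRAJ18 (23.6 points). For each the exact two-sided sign-flip permutation p was 0.03125, and 0.149 adjusted over the 43 TRAJ segments. At that unadjusted level 20.9% of the 43 segments were called. TRAJ12 lay lower in 5 of 6 libraries and TRAJ11 and TRAJ17 in 4, while TRAJ15 lay lower in 3. The TRAJ18 value includes the cells with TRAV11, of which 0% were in clones. Against cells with no member segment, TRAJ18 without TRAV11 lay lower by a mean of 16.4 points, beside 23.3 for all TRAJ18. Both lay lower in 6 of 6 libraries. Over all TRAJ, 38 of the 43 segments had a mean difference below 0, with a median of -12.3 points, and the 7 members had a median of -23.1.

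TRAJ18 was the only member whose expanded share was higher in every LNP-P20-mAb library, with 23.3, 9.28 and 9.88% against 50.0, 44.4 and 41.3%, from as few as 9 cells in LNP-P20-mAb 2. Without TRAV11 the shares were 29.2, 11.8 and 11.6% against 62.5, 57.1 and 47.5%, from as few as 7 cells in LNP-P20-mAb 2. In LNP-P20-mAb 1 and 2 all expanded TRAJ18 cells, 5 and 4, carried 1 receptor that both libraries shared, so these values are not independent. TRAJ16 was the only one lower, with 37.9, 10.0 and 6.52% against 0% in each LNP-P20-mAb library, which held 2, 3 and 13 TRAJ16 cells. Of the 42 segments with cells in every library, 28.6% lay higher and 2.38% lower without overlap. Both members had an exact permutation p of 0.1, and 0.323 adjusted over these segments. For TRAJ15 the values were 45.5, 10.0 and 16.6% against 90.6, 87.1 and 31.7%, and for TRAJ17 77.7, 7.59 and 1.94% against 58.6, 68.0 and 94.3%, so that both overlapped between treatments.

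Over all cells with a member segment the expanded share was 48.7, 13.8 and 11.7% with LNP-Ctrl and 77.0, 63.2 and 74.2% with LNP-P20-mAb. The groups did not overlap, and the means differed by 46.7 points. The receptors that LNP-P20-mAb 1 and 2 had in common were carried by 73.8 and 65.4% of their member cells, so these libraries are not independent here. Without the largest member clone of each library the shares were 32.9, 13.1 and 9.48% against 64.2, 47.3 and 32.3%, the difference was 29.5 points and the groups overlapped. Cells with no member segment were at 50.9, 28.1 and 11.9% against 87.0, 86.4 and 53.9%.

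By clonotypes, edgeR's quasi-likelihood test compared segments between clonotypes of 3 or more cells and single-cell clonotypes within libraries, and called 2.60% of 154 segments and 0 of the 7 members. TRAJ13 had the lowest log2 difference, -1.38 ± 0.67 (edgeR adjusted p = 0.263), and was the 1 member among the 25 segments with an unadjusted p below 0.05. TRAJ15 was the only member with a value above 0, at 0.57 ± 0.34 (edgeR adjusted p = 0.373). The difference of these values between treatments was called for 0.00% of the segments, and 2 of the 154 had an unadjusted p below 0.05 in edgeR.

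Each member joined a wide range of V segments. The number of TRAV segments, with copies of 1 segment merged, ran from 33 with TRAJ11 to 46 with TRAJ15. TRAV3-3 was among the 3 most frequent V segments of all 7 members, with 7.80% of their 1731 receptors beside 5.17% of receptors with other TRAJ. There, TRAV12-2 and TRAV16 were more frequent, at 6.16 and 6.15%. In the edgeR test described below, TRAV3-3 was called with none of the 7 (edgeR adjusted p from 0.138 to 0.821). With it, the 3 leading V segments were TRAV16 and TRAV9-3 for TRAJ11, TRAV9-3 and TRAV6-6 for TRAJ12, TRAV12-2 and TRAV6-6 for TRAJ13, TRAV12-3 and TRAV10 for TRAJ15, TRAV12-2 and TRAV6-5 for TRAJ16, TRAV7-6 and TRAV6-6 for TRAJ17, and TRAV11 and TRAV12-2 for TRAJ18. These 3 held from 19.01% of the receptors of TRAJ12 to 34.8% of those of TRAJ18, where TRAV11 alone held 21.2%.

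9 of 65 member pairs tested were called by edgeR's quasi-likelihood test as joined more or less often than with other TRAJ in the same libraries. That is 13.8%, and over all 494 TRAV and TRAJ pairs tested the share was also 13.8%. 7 of the 9 were more frequent and 2 less frequent. 2 stood far from the others: TRAV11 with TRAJ18, at a log2 difference of 6.14 ± 0.35 (edgeR adjusted p = 7.4e-43), and TRAV7-6 with TRAJ17, at 2.76 ± 0.41 (edgeR adjusted p = 7.8e-09). Both were more frequent in 6 of 6 libraries. Both were called under every alternative that tested them, 13 for TRAV11 (5.98 to 6.47) and 11 for TRAV7-6 (2.39 to 3.23).

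TRAV7-6 was present with TRAJ17 in every library, in 5, 3 and 3 receptors with LNP-Ctrl and 6, 5 and 5 with LNP-P20-mAb. It made up 27 of 277 TRAJ17 receptors (9.75%) and 1.64% of receptors with other TRAJ, and all 27 carried the copy named TRAV7N-6. Of these 27 loops 25 were 14 residues long. They held 13 amino acid sequences in 17 encodings, nearly all of the form CAV, 2 variable residues, NSAGNKLTF. The most frequent, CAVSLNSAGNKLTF, occurred in 9 receptors and 5 libraries and was the alpha chain of TRAJ17 found in most libraries. Its 3 encodings are shown with the bases that match TRAJ17 in capitals, and they differ where that part starts and just ahead of it.
7 receptors in 5 libraries: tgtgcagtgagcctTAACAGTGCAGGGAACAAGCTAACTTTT
1 receptor: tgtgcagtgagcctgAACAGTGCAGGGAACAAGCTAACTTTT
1 receptor: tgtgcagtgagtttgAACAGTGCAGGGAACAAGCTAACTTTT

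The 112-cell clone of LNP-Ctrl 1 belonged to this set, and its loop, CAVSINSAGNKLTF, was found in 1 receptor. It made up most of the 150 cells with the pair, and 8 of the clonotypes had 2 or more cells. The 404-cell clone used another V segment of the same family, TRAV7D-2, and was not among the 27.

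The other 7 called pairs were less stable. TRAJ12 was joined more often to TRAV8-2 (16 receptors, 4.41 against 1.77%) and TRAV9-3 (22 receptors, 6.06 against 2.50%) and less often to TRAV12-2 (9 receptors, 2.48 against 6.10%). TRAJ15 was joined more often to TRAV8-2 (17 receptors, 4.39 against 1.76%) and TRAV7-3 (16 receptors, 4.13 against 1.78%) and less often to TRAV13-1 (7 receptors, 1.81 against 4.73%). TRAJ13 was joined more often to TRAV4-4 (10 receptors, 4.85 against 1.32%). Their log2 differences lay between -1.38 ± 0.46 for TRAJ15 with TRAV13-1 and 1.86 ± 0.57 for TRAJ13 with TRAV4-4, with edgeR adjusted p-values from 0.0137 to 0.0427.

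DESeq2 called none of these 7, with DESeq2 adjusted p-values from 0.0570 to 0.227. Without LNP-Ctrl 3, which holds most receptors, edgeR called 2 member pairs in all, and without LNP-P20-mAb 2 it called 5. TRAV8-2 with TRAJ12 was lost when LNP-P20-mAb 1 and 2 were pooled (edgeR adjusted p = 0.07001) and without LNP-P20-mAb 1, 2 or 3. TRAV12-2 with TRAJ12 was lost without LNP-Ctrl 1, 2 or 3, TRAV9-3 with TRAJ12 without LNP-Ctrl 3 or LNP-P20-mAb 3, and TRAV8-2 with TRAJ15 without LNP-Ctrl 3. TRAV13-1 with TRAJ15 was lost without LNP-Ctrl 1, LNP-Ctrl 3 or LNP-P20-mAb 2, and TRAV7-3 with TRAJ15 without LNP-Ctrl 2, LNP-P20-mAb 2 or LNP-P20-mAb 3. None of the 7 changed direction in the fits that tested them, but not every alternative tested every pair. TRAV4-4 with TRAJ13 was tested in 5 alternatives and lost with DESeq2 only, and TRAV8-2 with TRAJ12 was tested in 10.

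**Figure D3:**
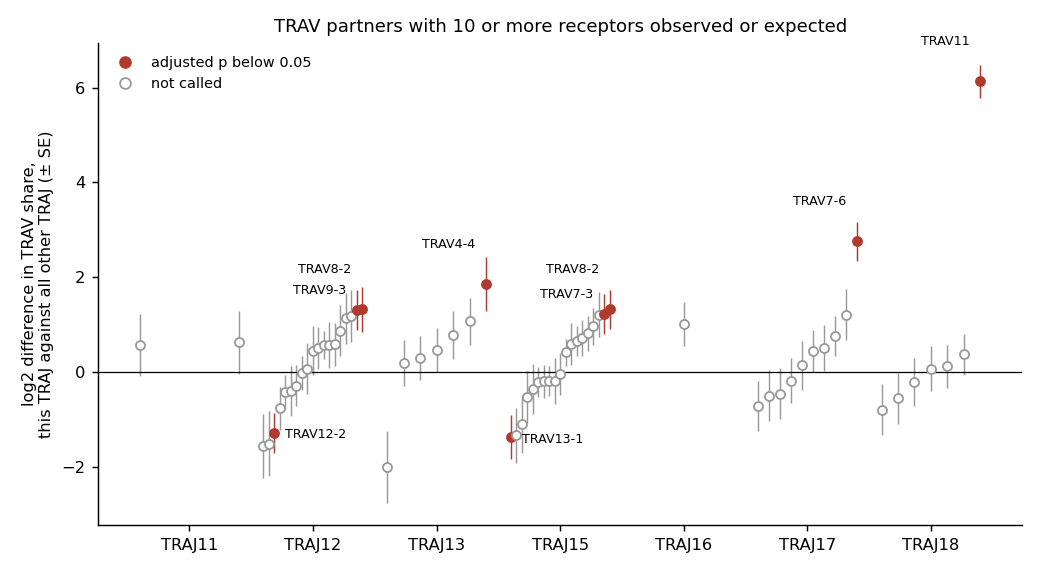
Log2 difference in the share of each TRAV segment between receptors with the J segment named on the x axis and receptors with any other TRAJ in the same libraries, with bars for the SE; filled points passed an adjusted p of 0.05 in edgeR. TRAV11 with TRAJ18 at 6.14 and TRAV7-6 with TRAJ17 at 2.76 lie above the 7 other called pairs.

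TRAJ18 receptors fell into 56 with TRAV11 and 208 with 44 other V segments. TRAV11 was found in 12, 22 and 12 TRAJ18 receptors of the LNP-Ctrl libraries and in 2, 2 and 6 of the LNP-P20-mAb libraries. As a share of clonotypes this was 0.667, 0.712 and 0.351% against 0.358, 0.501 and 0.443%, and the groups overlapped. With other TRAJ, TRAV11 was found in 33 receptors. The 56 were named TRAV11 throughout and never TRAV11D.

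The loop was close to invariant. The same loop of 15 residues was carried by 50 of the 56 receptors in all 6 libraries, by 42 cells with LNP-Ctrl and 8 with LNP-P20-mAb, each with a beta chain of its own. It arose from 4 encodings, shown with the TRAJ18 part in capitals, which differ in the base just ahead of it.
19 receptors in 5 libraries: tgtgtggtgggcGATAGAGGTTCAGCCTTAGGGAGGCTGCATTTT
18 receptors in 6 libraries: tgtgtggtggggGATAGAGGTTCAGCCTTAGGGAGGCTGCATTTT
7 receptors in 3 libraries: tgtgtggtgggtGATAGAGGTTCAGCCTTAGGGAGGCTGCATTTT
6 receptors in 3 libraries: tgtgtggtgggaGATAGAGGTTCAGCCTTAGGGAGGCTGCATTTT

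All 4 keep the 33 bases of the TRAJ18 part shown above. The 6 remaining receptors had 4 other loops, 1 of them in 3 receptors.

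The beta partners of these receptors were few. TRBV1, TRBV13-2 or TRBV29, the beta segments known for mouse iNKT receptors, were the partner of 42 of the 56 receptors with TRAV11 (75%), of 48 of the 208 TRAJ18 receptors without it (23.1%) and of 19.5% of receptors with other TRAJ. Within libraries the share was 66.7, 68.2 and 83.3% with LNP-Ctrl and 100, 100 and 83.3% with LNP-P20-mAb, where the first 2 libraries held 2 such receptors each. TRBV13-2 alone was the partner of 30 of the 56, at a log2 difference of 2.28 ± 0.33 from all other receptors (edgeR adjusted p = 3.3e-07), and was called in 12 of 12 alternatives. The files hold receptor chains only, so no other iNKT marker could be read.

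None of the 56 cells shared its clonotype with another cell: 0 of 56 allows an expanded share of up to 5.36%. A second alpha chain was found in 6 of the 56 receptors (10.7%) and in 66 of the 208 TRAJ18 receptors without TRAV11 (31.7%). The cells with TRAV11 had a median of 4.5 UMIs (counted transcripts) per chain beside 7 in those without, and the part of this depth in the share with a second chain was not tested. TRAJ18 without TRAV11 had 18 of 206 clonotypes of 2 or more cells, and its leading V segments were TRAV3-3, TRAV12-2 and TRAV13-1 with 19, 17 and 13 receptors.

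TRAJ18 with TRBV13-2 and TRAJ15 with TRBV13-3 were the beta pairings called. TRBV13-2 was first or second among the beta partners of every member, with 13.5% of all member receptors beside 10.6% with other TRAJ. It was also ahead of TRBV5, at 7.68%, among receptors with other TRAJ. Of the 233 member receptors with TRBV13-2, 30 were of the TRAV11 and TRAJ18 set. The 3 leading TRBV segments were TRBV16, TRBV13-2 and TRBV5 for TRAJ11, TRBV13-2, TRBV19 and TRBV5 for TRAJ12, TRBV13-2, TRBV3 and TRBV13-3 for TRAJ13, TRBV13-3, TRBV13-2 and TRBV3 for TRAJ15, TRBV3, TRBV13-2 and TRBV12-2 for TRAJ16, TRBV13-2, TRBV3 and TRBV19 for TRAJ17, and TRBV13-2, TRBV29 and TRBV12-1 for TRAJ18. Of the 83 member pairs tested, with TRAJ18 taken as the sets with and without TRAV11, 2 were called by edgeR's quasi-likelihood test, beside 0.885% of the 565 pairs tested over all TRAJ, and 10 member pairs had an unadjusted p below 0.05. They were TRBV13-2 with the TRAV11 and TRAJ18 set, above, and TRBV13-3 with TRAJ15. TRAJ18 as a whole was also past the threshold with TRBV13-2 (61 of 264 receptors, 23.1 against 10.7%, higher in 6 of 6 libraries), at a log2 difference of 1.08 ± 0.21 (edgeR adjusted p = 0.00037). Without TRAV11 it was not (31 of 208 receptors, 14.9 against 10.9%, higher in 4 of 6 libraries), at 0.43 ± 0.27 (edgeR adjusted p = 0.705). TRAJ12 with TRBV19 (41 receptors, 11.3 against 7.21%) was not called, at a log2 difference of 0.64 and an edgeR adjusted p of 0.329.

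TRAJ15 paired with TRBV13-3 in 48 of 387 receptors (12.4%), beside 6.26% of receptors with other TRAJ, at a log2 difference of 0.99 ± 0.24 (edgeR adjusted p = 0.0152). The share was higher than with other TRAJ in 6 of 6 libraries: 8.20, 9.52 and 12.4% with LNP-Ctrl and 23.8, 26.7 and 14.6% with LNP-P20-mAb. The call was lost with LNP-P20-mAb 1 and 2 pooled (edgeR adjusted p = 0.0609) and without LNP-Ctrl 2, LNP-Ctrl 3, LNP-P20-mAb 1 or LNP-P20-mAb 3, where the adjusted p reached 0.154. These 48 receptors were carried by 232 cells, of which the 91- and 40-cell clone and the 25-cell clone made up the greater part.

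The beta chains of this pair leaned to 1 J segment, though not in LNP-Ctrl 3. TRBJ2-1 was used by 19 of the 48 (39.6%) and by 84 of the 732 TRBV13-3 receptors with other TRAJ (11.5%), given without a test. By library it was 3 of 5, 3 of 10 and 1 of 17 with LNP-Ctrl, and 5 of 5, 4 of 4 and 3 of 7 with LNP-P20-mAb. In LNP-Ctrl 3 the share was below that with other TRAJ (5.88 against 9.26%). A beta loop that ended in GAYAEQFF or GAHAEQFF was found in 10 of the 48 and in 4 of the 732, a feature chosen after the values were seen and given without a test. LNP-P20-mAb 1 and 2, which share clones, gave 4 and 3 of the 10, LNP-Ctrl 1 gave 2 and LNP-Ctrl 3 gave 1. They were 7 distinct alpha-beta pairs with alpha loops of 11 to 13 residues, such as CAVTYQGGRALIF with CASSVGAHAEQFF, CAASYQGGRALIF with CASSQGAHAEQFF and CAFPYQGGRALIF with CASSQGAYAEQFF. A 13-cell clone of LNP-P20-mAb 1 with the beta loop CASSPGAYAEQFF carried 2 TRAJ15 chains, whose loops of 13 residues end in the same 8. They are shown with the TRAJ15 part in capitals.
TRAV10N, 12 cells: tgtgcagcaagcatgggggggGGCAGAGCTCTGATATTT
TRAV4-2, 9 cells: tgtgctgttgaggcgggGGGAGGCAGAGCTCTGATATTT

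The CDR3 loop was shorter than with other TRAJ for TRAJ12, TRAJ13 and TRAJ15 and longer for TRAJ18. Mean lengths over the 6 libraries, each distinct receptor counted once, were 13.1 ± 0.217 amino acids for TRAJ12, 12.9 ± 0.208 for TRAJ13, 13.2 ± 0.174 for TRAJ15 and 14.99 ± 0.267 for TRAJ18 (SD, n = 6). Against all other TRAJ in the same library TRAJ12 differed by -0.60, TRAJ13 by -0.80, TRAJ15 by -0.49 and TRAJ18 by 1.32 residues, each in 6 of 6 libraries. The exact sign-flip permutation p was 0.03125 for each and 0.0498 adjusted over the 43 TRAJ segments. That level was passed by 62.8% of the segments, 32.6% with longer and 30.2% with shorter loops. These calls count the LNP-P20-mAb libraries that share receptors as separate. With those libraries pooled, the smallest possible sign-flip p is 0.0625, so none of the calls would stand. TRAJ11 (13.9), TRAJ16 (13.8) and TRAJ17 (14.0) did not differ from other TRAJ beyond the spread between libraries. TRAJ13, with the shortest J part, had the shortest loops, and TRAJ18, with the longest, had the longest, with or without TRAV11 (15.07 and 14.98). TRAJ11 and TRAJ12 bring 28 bases each and had means of 13.9 and 13.1.

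The TRAJ18 loops with TRAV11 varied least in length: 54 of 56 had 15 residues, beside 33.2% of those without TRAV11. Most other members had a broad peak, such as 13 residues in 46.6% of TRAJ13 receptors and 14 in 37.1% of TRAJ11 receptors.

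TRAJ17 loops were shorter in all 3 LNP-P20-mAb libraries (13.5, 13.3 and 13.9 residues) than in the LNP-Ctrl libraries (14.4, 14.4 and 14.4). The means, 13.6 ± 0.320 and 14.4 ± 0.031 (SD, n = 3 each), differed by -0.80, with an exact permutation p of 0.1, the smallest possible, and 0.6 adjusted over the TRAJ segments. TRAJ12 loops were also shorter (13.3, 13.3 and 13.2 against 12.9, 13.2 and 12.8) and TRAJ18 loops longer (14.8, 14.97 and 14.7 against 15, 15 and 15.5), with the same p-values. Of the 42 segments with receptors in every library, 7.14% lay lower and 9.52% higher without overlap. LNP-P20-mAb 1 and 2 held few of these receptors and shared some of them. For TRAJ17 they held 15 and 10 with 5 shared, for TRAJ12 14 and 11 with 1 shared, and for TRAJ18 6 each with 1 shared.

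**Figure D4:**
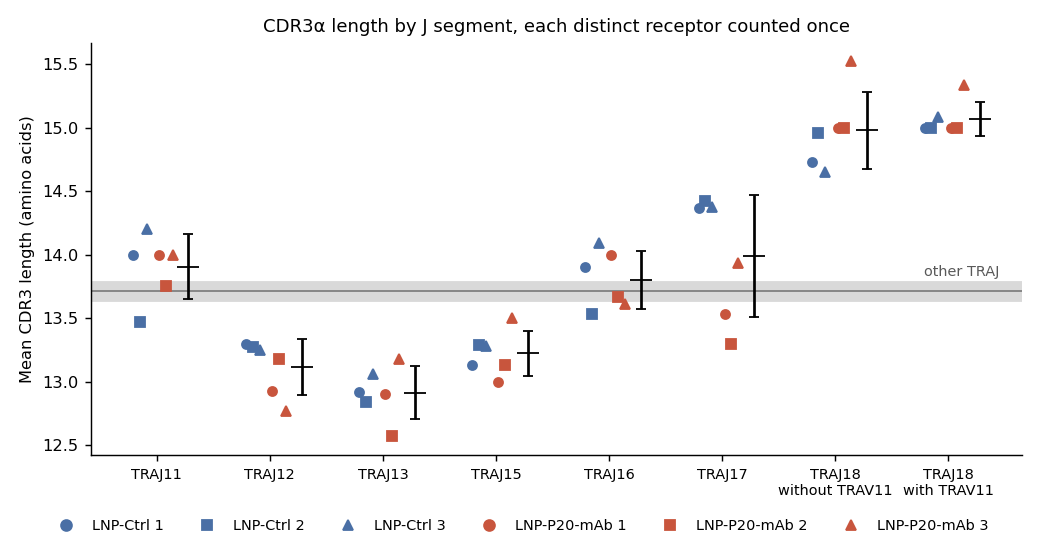
Mean CDR3 length of the alpha chain in amino acids for each J segment, with TRAJ18 divided by V partner; points are libraries, crosses with bars the mean and SD over 6 libraries, and the grey line and band the mean and SD of all other TRAJ. TRAJ12, TRAJ13 and TRAJ15 lie below the band and both TRAJ18 sets above it.

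1 TRAJ17 chain held 2 J segments. Its loop of 40 residues, beside 18 in the next longest loop of any member, was seen in 1 cell of LNP-Ctrl 3 with 2 UMIs, and joined TRAV9-4 to a stretch of TRAJ18 that ran on into TRAJ17. The run of 61 bases that match TRAJ18, CDR3 and framework parts, is in capitals, and the last 32 bases of the 120 match TRAJ17.
TRAV9-4, TRAJ18 and TRAJ17: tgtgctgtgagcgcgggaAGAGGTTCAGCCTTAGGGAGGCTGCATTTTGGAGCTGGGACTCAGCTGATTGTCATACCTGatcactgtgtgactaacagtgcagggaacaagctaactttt
TRAJ17 is the next segment downstream of TRAJ18 in the RefSeq annotation of mouse assembly GRCm38.p6. Without this chain LNP-Ctrl 3 had a mean TRAJ17 loop of 14.1 residues, and the difference between treatments was -0.71 (exact permutation p = 0.1).

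Some alpha chains recurred with the same V, J and amino acid loop in several libraries. With LNP-P20-mAb 1 and 2 counted as 1 source, 83 of 1527 distinct member chains (5.44%) were found in 2 or more of 5 sources, beside 483 of 9323 (5.18%) with other TRAJ. The share was 7.08% of 325 chains for TRAJ12, 6.94% of 346 for TRAJ15 and 6.60% of 197 for TRAJ18. It was 2.56% of 117 for TRAJ11 and 2.91% of 103 for TRAJ16, which is 3 chains each. The shares were not adjusted for the unlike numbers of chains, and no difference between segments was tested. After the loop of the TRAV11 and TRAJ18 set and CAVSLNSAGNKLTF, the chains found in most libraries were a loop of 14 residues with TRAV9-3 for TRAJ12 (6 receptors, 3 libraries), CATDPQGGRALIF with TRAV8-2 for TRAJ15 (4 receptors, 3 libraries) and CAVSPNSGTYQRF with TRAV9-1 for TRAJ13 (3 receptors, 3 libraries). Other chains of these segments were found in 3 libraries too, and the ones named were those with the most cells. Each of the 3 had 1 encoding, printed here with the J part in capitals.
TRAJ12: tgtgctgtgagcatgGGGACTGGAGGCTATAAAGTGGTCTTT
TRAJ15: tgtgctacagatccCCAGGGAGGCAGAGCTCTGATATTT
TRAJ13: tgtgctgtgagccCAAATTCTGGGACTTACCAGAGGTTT
For TRAJ11 (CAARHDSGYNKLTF) and TRAJ16 (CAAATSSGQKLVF) the chain named was 1 of 3 found in 2 libraries, with 2 encodings each. The TRAJ16 chains were level in cells too, at 2 each.

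V segments that lie nearest the J cluster were almost missing from the 7 members. TRAV17, TRAV18, TRAV19, TRAV20 and TRAV21-DV12 were joined to 6 of 1731 member receptors, and to 178 of 1148 receptors with TRAJ50 to TRAJ58, at the near end of the cluster. TRAV19 gave 5 of the 6 and 75 of the 178, TRAV21-DV12 gave 1 and 71, and TRAV17 gave 0 and 31. By library the member share was 0.358, 0.769 and 0% with LNP-Ctrl and 1.32, 0 and 0% with LNP-P20-mAb, and the TRAJ50 to TRAJ58 share was 17.1, 17.4 and 16.1% against 12.2, 14.3 and 10.1%. The difference was -14.1 points on average, in 6 of 6 libraries (exact sign-flip permutation p = 0.03125). TRAJ11, TRAJ16 and TRAJ17 had 0 such receptors, TRAJ12 and TRAJ18 1 each, and TRAJ13 and TRAJ15 2 each.

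The second alpha chain of a cell followed the position of the first. Of 1457 clonotypes with 2 alpha chains, 375 had a member segment on at least 1 chain and 56 of these on both. When 1 chain had a member segment, the other had a mean TRAJ number of 19.7, 20.05 and 19.4 in the LNP-Ctrl libraries and 16.7, 16.4 and 20.4 in the LNP-P20-mAb libraries. When 1 chain had TRAJ50 to TRAJ58, the other had 48.6, 47.5 and 47.6 and 45.4, 49.1 and 45.8. TRAJ numbers fall from the near to the far end of the cluster, so a lower number lies farther downstream. The difference was -28.5 on average in 6 of 6 libraries (exact sign-flip permutation p = 0.03125), over 431 chains opposite a member and 249 opposite TRAJ50 to TRAJ58. A second alpha chain was found in 24.9% of member receptors and 24.002% of receptors with other TRAJ, from 16.9% with TRAJ11 to 33.6% with TRAJ16.

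**Figure D5:**
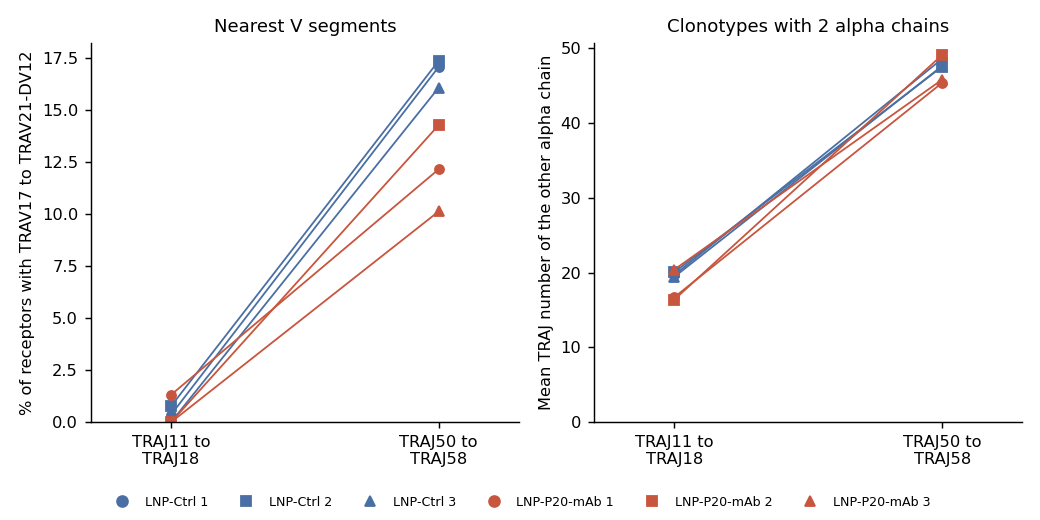
Left, percent of distinct receptors whose V segment is one of the 5 nearest the J cluster, for TRAJ11 to TRAJ18 and for TRAJ50 to TRAJ58; right, mean TRAJ number of the other alpha chain in clonotypes with 2; each line is 1 library. All 6 lines rise in both plots, from 0 to 1.32% up to 10.1 to 17.4% on the left and from 16.4 to 20.4 up to 45.4 to 49.1 on the right.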

How the data were processed

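6 libraries of assembled TCR chains were analysed, 3 for each treatment, grouped by their titles. The other 6 samples, of gene expression, were not analysed here. The deposited files list the V, J and CDR3 of each chain with raw counts of reads and UMIs, and were made with Cell Ranger 8.0.1 per the submitters' processing notes. The roles of the genome builds named there are not given in the sources used here, so no coordinates are printed. The authors called cells and chains, and a chain or cell dropped before deposit leaves no trace.

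Repeated chain rows (11) were dropped. Paired cells had 1 TRB and at most 2 TRA chains. A barcode with more chains than that may be a doublet and was dropped. No doublet caller was run, and doublets with 1 TRB chain may remain. In defining clonotypes and receptors, copies of a V segment (D or N in the name) were merged, and the joint name TRBV12-2 with TRBV13-2 was read as TRBV13-2. A receptor is a distinct alpha-beta pair of a library. Libraries held 85835 to 145847 UMIs.

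Counts of clonotypes or receptors were tested with edgeR 4.0.16 (R 4.3.3; quasi-likelihood, Benjamini-Hochberg over all features tested). Segments needed 30 clonotypes and pairs 10 receptors observed or expected, and the quasi-dispersion of pairs was not let below counting noise. The SE is the size of the log2 difference divided by the square root of F. Pair and expansion fits had the library as a block. Single values per library were tested by exact two-sided permutation (3 against 3, smallest p 0.1) or sign-flip tests (6 libraries, smallest p 0.03125), with p-values adjusted over the 43 TRAJ segments. Python 3.11.15, scipy 1.17.1, numpy 2.4.6, pandas 2.3.3 and matplotlib 3.10.9 were used.

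Tested on simulated counts with known changes, the usage fit recovered 66% of 2-fold and 95.67% of 4-fold changes over 154 segments, the expansion fit 30.67 and 64.33% over 154 segments, the TRAV pair fit 34.72 and 100% over 475 pairs and the TRBV pair fit 29.17 and 100% over 545 pairs. Of unchanged features, these fits called 0.605, 0.282, 0.744 and 0.178%, in the same order. Simulated libraries were independent, with an assumed spread for segments and counting noise only for pairs. The receptors shared by LNP-P20-mAb 1 and 2 were not simulated, so the rates hold for those settings only. Intervals are exact Clopper-Pearson 95% intervals, and a count of 0 allows up to 3 counts.

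Named were all 7 segments, each called pair, each member's 3 leading TRAV and TRBV segments, its largest clonotype per treatment and those of 20 or more cells, its alpha chain found in most libraries and its most alike TRAJ segment. Ties between alpha chains went to the chain with more cells. The segments, lists and tests were chosen with earlier results of these data known. Alternatives were DESeq2 1.42.0, TMM factors, other minimums, names as deposited, cells in place of clonotypes, LNP-P20-mAb 1 and 2 pooled, the replicate number as a block, and each library left out in turn. Names as deposited in the clonotype definition, the unrestricted quasi-dispersion, and leaving out the largest clones or the chain of 2 J segments were alternatives chosen after seeing the data. J order and names came from RefSeq (mouse assembly GRCm38.p6).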

Additional observations from a re-analysis of the deposited data

How the results depend on the processing

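The counts of members called for usage between treatments and by expansion were 0 under every alternative run, while the number of segments called over all V and J segments moved from 4 to between 0 (cells counted) and 14 (without LNP-Ctrl 1) between treatments, and from 4 to between 2 and 10 by expansion. The number of member TRAV pairs called moved from 9 to 2 with DESeq2 (35 of 494 pairs over all TRAJ in place of 68), to 1 with 30 or more receptors per pair (35 pairs tested), and to 20 with TRAV names as deposited (146 of 394 pairs); the cause of the last was not tested. Leaving out 1 library at a time gave 2 to 8 such pairs, the lowest without LNP-Ctrl 3, where fewer pairs could be tested (266). Of the 2 member TRBV pairs, 1 was called with LNP-P20-mAb 1 and 2 pooled, and 1 to 2 with single libraries left out. The share of the nearest V segments differed by -14.4 points and the TRAJ number of the second alpha chain by -28.2 with LNP-P20-mAb 1 and 2 pooled, and by -14.9 to -13.6 points and -29.2 to -27.7 with 1 library left out; 5 libraries cannot give a p below 0.0625, which is the value of each of these. Replicate numbers did not pair the libraries: deviations of same-numbered libraries from their group means correlated at -0.063, -0.15 and -0.067 over 154 segments, and with the replicate number as a block 0 members and 3 of 154 segments were called between treatments. The difference in expanded share over all members ran from 40.2 to 58.7 points with 1 library left out and was 49.1 with every library thinned to 2016 cells. No called result changed direction in any alternative run. The loop lengths of TRAJ12, TRAJ13, TRAJ15 and TRAJ18 kept their direction and had the same p of 0.0625 with 5 libraries. Precision is limited most in LNP-P20-mAb 1 and 2, with 76 and 63 member receptors.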

Other observations

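TRAJ16 was the least used of the 7 segments and the one most often seen beside a second alpha chain, in 37 of 110 receptors (33.6%), while TRAJ11, used at a similar level, had one in 21 of 124 (16.9%). TRAJ15 took up the largest share of the receptors that LNP-P20-mAb 1 and 2 had in common: 8 of its 21 and 15 receptors, which held 85.6 and 88.7% of the TRAJ15 cells of these libraries. TRAJ17 followed with 5 shared receptors of 15 and 10, and TRAJ16 had 0 of 2 and 3. These values are given as descriptions, with no test.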
